A study of Mus musculus with 4 samples.

Results

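Neutrophil secondary granule genes were followed in MDSCs (myeloid-derived suppressor cells) with and without EGCG. The group was given by gene name and holds 9 genes, Ltf, Camp, Ngp, Lcn2, Cd177, Padi4, Chil3, Chil1 and Pglyrp1, of the 53465 genes in the count table. All 9 were found by symbol and all 9 were among the 14682 genes with enough counts to be tested. The cells came from spleens of BALB/c mice bearing 4T1 tumors, a transplantable mammary carcinoma line of that strain, and were collected with magnetic beads that bind Gr-1, which is carried by granulocytes (Ly-6G) and monocytes (Ly-6C). They were cultured for 6 h in control medium (2 libraries) or with 5 μg/mL EGCG (2 libraries), the main catechin of green tea. The labels name no genetic change in either group, and both groups have the same tumor model, type of sort and time in culture. The sample labels place the sort on day 21 after tumor injection, whereas the paper's methods give an earlier day. The labels do not state whether replicate libraries stem from separate mice or cultures, so the p values measure the spread between these libraries, which may be technical.

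A developing neutrophil fills its granules in sequence. Primary (azurophil) granules form first, secondary (specific) granules follow at the myelocyte and metamyelocyte stages under the transcription factor C/EBP epsilon, and gelatinase granules come last. The mRNA of most granule proteins is made at the stage when the granule forms and declines as the cell matures. The proteins of secondary granules bind iron, cut or disrupt bacterial walls and membranes, and are released at sites of infection. MDSCs of the granulocytic kind are immature neutrophil-like cells, in which such mRNAs are still found.

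The libraries held between 17767318 and 18390385 counts. The labelled cell type was checked against 8 neutrophil markers, all of which were tested. S100a8 and S100a9, which encode the most abundant cytosolic proteins of neutrophils, were at 14461 to 22838 CPM and 22455 to 31668 CPM, and Ly6g, named here because the sort used it, the granulocyte antigen recognized by Gr-1 antibody, was at 943 to 1200 CPM. CPM are counts divided by the library's total over the tested genes, after TMM scaling, times 1e6. Summed markers of monocytes were at 951 to 1049 CPM, those of macrophages at 922 to 998 CPM and those of basophils and eosinophils at 848 to 1144 CPM, so that markers of other cell types were also present. Single genes made up most of each sum. These were Csf1r (536 to 632 CPM) for monocytes, Slc40a1 (562 to 696 CPM) for macrophages and Prg2 (607 to 865 CPM) for basophils and eosinophils. Summed markers of erythroid, B, plasma, T and NK, platelet, endothelial, dendritic and epithelial cells were each at 397 CPM or less, with none called. Control replicate 1 stood apart from the EGCG libraries. A chi-square of counts averaged 16.0 and 12.4 per gene between it and the EGCG libraries, against 7.57 and 6.70 for control replicate 2 and 6.85 between the control libraries themselves. Between the 2 EGCG libraries it averaged 6.645, so control replicate 2 lay about as near to EGCG replicate 2 as EGCG replicate 1 did. In bulk RNA, fewer cells of a type and less RNA per cell cannot be told apart.

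Camp, Ngp and Ltf lie on chromosome 9 of GRCm38, in this order. Camp is at chr9:109847379-109849617, Ngp 570129 bases further at chr9:110419747-110423012, and Ltf another 596258 bases on at chr9:111019271-111042767. The other members are spread over the genome, with Chil1 on chromosome 1, Lcn2 on 2, Chil3 on 3, Padi4 on 4, and Pglyrp1 and Cd177 on 7. In GENCODE M21 no other gene, on either strand, overlapped the span of any of the 9, which bears on them because the reads were counted without regard to strand. For Chil3, 41.5% of the 31-base words in its transcripts also occur in transcripts of other genes, mainly of its neighbors Chil4 and Gm6522, and its counts are less certain than those of the others. The share was 6.93% for Cd177, 6.54% for Pglyrp1, 0.227% for Padi4 and 0 for the other 5. Chil4 itself had 1 to 4 counts per library and Gm6522 0 to 10.

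The upstream sequences of Ltf and Ngp are shown since these were the members with the most counts, and since both hold the same match to a C/EBP-type motif. They are from RefSeq (GRCm38.p6), on the strand of the gene, and stop where the first annotated exon begins. Capitals mark the motif TTNNGCAA, searched on both strands.
Ltf, chr9:111019042-111019270, plus strand, bases -250 to -22 from the RefSeq start: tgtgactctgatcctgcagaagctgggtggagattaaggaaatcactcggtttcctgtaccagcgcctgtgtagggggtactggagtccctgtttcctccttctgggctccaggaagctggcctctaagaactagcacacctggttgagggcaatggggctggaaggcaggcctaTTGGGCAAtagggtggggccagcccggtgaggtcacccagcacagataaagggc
Ngp, chr9:110419558-110419746, plus strand, bases -250 to -62 from the RefSeq start: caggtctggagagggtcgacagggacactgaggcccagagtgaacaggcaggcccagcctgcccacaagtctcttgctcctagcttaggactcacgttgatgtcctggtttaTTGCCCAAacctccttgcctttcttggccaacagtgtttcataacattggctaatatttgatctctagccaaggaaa
The capitals in Ngp are the reverse complement of those in Ltf. All 9 members had an upstream sequence of 250 bases, and TTNNGCAA occurred in 3 of the 9 (Ltf, Ngp, which has another match at -11, and Lcn2), against 9.56% of 32851 promoters. These 250 bases include annotated exon bases, which the shown sequences leave out. The match in Lcn2 (-216 to -209) and the Ngp match at -11 lie in such bases. The exact letters TTGGGCAA, looked for after they had been seen, occurred on either strand in 0.709% of promoters. The PU.1-type motif GAGGAA, on both strands, was present in 4 members (Ltf, Lcn2, Cd177 and Pglyrp1) and in 23.3% of promoters. The NF-κB-type motif, on both strands, was found in Pglyrp1 (as GGAAAGTCCC) and in 1.41% of promoters, and TATAAA on the gene's strand in Cd177 and Padi4 and in 7.59% of promoters. A match is a description of the letters and not a shown site of binding.

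The effect of EGCG was tested in edgeR (quasi-likelihood), and p values were adjusted by Benjamini-Hochberg across the tested genes, with 0.05 as the threshold. None of the 9 secondary granule genes passed in either direction, and 0 had an unadjusted p under 0.05. Over all tested genes 0.15% passed the threshold (0.0136% higher and 0.136% lower with EGCG), and 12.2% had an unadjusted p under 0.05. DESeq2 also called 0 of the 9, beside 14 higher and 50 lower over all genes. Their fold changes ran from 0.951 (Ltf) to 1.12 (Pglyrp1), and each 95% confidence interval lay between 0.843-fold and 1.26-fold. Intervals are for single genes and rest on 2 libraries a group, with the spread shared across genes. The estimate was above 0 on the log2 scale for 7 members and below for 2, with a median of 0.08, beside a share of 50.6% above 0 and a median of 0.0031 over all tested genes. The number above 0 fell to 5 with library size only, with a length correction or without control replicate 1. The median was 0.02 without control replicate 1 and 0.04 with the length correction.

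**Figure D1:**
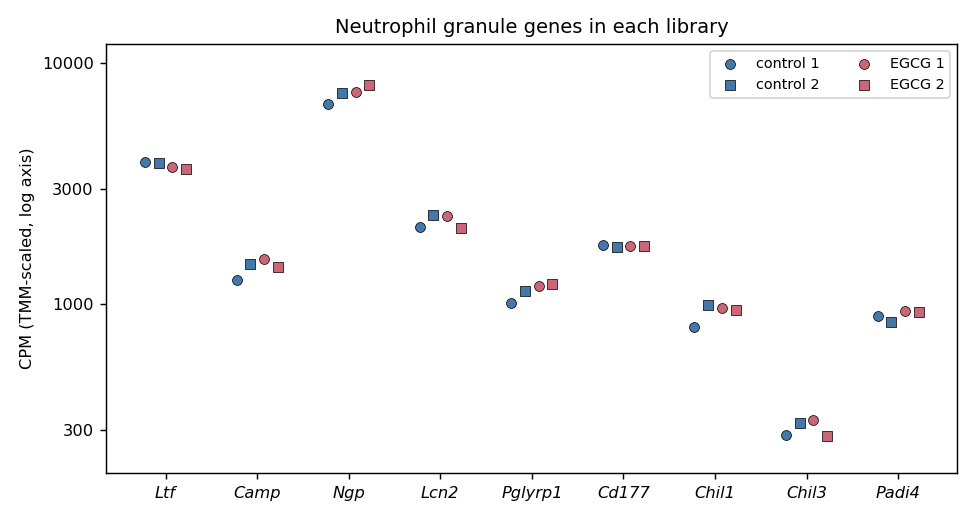
CPM of the 9 secondary granule genes (log axis) in each library, with control in blue and EGCG in red, and replicate 1 as circles and replicate 2 as squares. Ngp was at 6779 to 8085 CPM and Chil3 at 284 to 330 CPM, and the libraries of the 2 groups lie close together for each gene.

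Together the members took 1.93% and 2.01% of all counts in the control libraries and 2.01% in both EGCG libraries. Their summed level was 18780 and 20197 CPM in control and 20363 and 20325 CPM with EGCG, a mean of 19488 ± 1002 (SD, n = 2) against 20344 ± 26.7 (SD, n = 2). The groups did not overlap, but control replicate 2 lay near the EGCG libraries and the difference of the means was 4.39% of the control mean. This rests on the TMM scaling. Without it, relative to all counts of a library, the sums were 19300 and 20080 in control and 20077 and 20067 with EGCG, so that the groups overlapped, and the difference was 1.94%. Without Ngp, the most abundant member, the TMM-scaled sums overlapped too (12001 and 12684 against 12758 and 12240 CPM), and the difference was 1.27%. No test was made of the sum.

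Ngp, neutrophilic granule protein, is a cathelin-domain protein of the secondary granule and was the fifth most counted of all tested genes. Its level was 6779 and 7513 CPM in control and 7605 and 8085 CPM with EGCG. The EGCG libraries were both above the control libraries, although control replicate 2 and EGCG replicate 1 were almost level. The log2 fold change was 0.13 (standard error 0.09, interval -0.06 to 0.33, adjusted p of 0.596 by edgeR's test). With a library dropped its estimate ran from 0.07 (control replicate 1) to 0.21 (control replicate 2). Ngp alone made up 36.1% and 37.2% of the members' counts in control and 37.3% and 39.8% with EGCG.

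Camp encodes the cathelicidin precursor, from which the membrane-disrupting peptide CRAMP is cut. It was at 1264 and 1463 CPM in control and 1545 and 1430 CPM with EGCG. The groups overlapped, since control replicate 2 lay above EGCG replicate 2. Its log2 fold change was 0.13 (standard error 0.09, interval -0.06 to 0.32, adjusted p of 0.614 by edgeR's test). Control replicate 1 was the lowest library for Camp, and the log2 fold change was 0.03 when it was dropped and 0.24 when control replicate 2 was.

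Ltf encodes lactoferrin, the iron-binding protein that defines the secondary granule. It was at 3875 and 3842 CPM in control and 3716 and 3626 CPM with EGCG. Both EGCG libraries were below both control libraries, and the replicates of a group lay close to each other. The log2 fold change was -0.07 (standard error 0.08, interval -0.25 to 0.10, adjusted p of 0.776 by edgeR's test). It stayed below 0 under each of the 14 alternatives, from -0.11 to -0.05, with no adjusted p under 0.646.

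Lcn2 encodes lipocalin 2 (NGAL), which takes iron from bacteria by binding their siderophores. It was at 2093 and 2355 CPM in control and 2327 and 2066 CPM with EGCG. The groups overlapped, and their means, 2224 ± 185 and 2197 ± 185 CPM (SD, n = 2), lay within the spread of either group. The log2 fold change was -0.02 (interval -0.21 to 0.18, adjusted p of 0.963 by edgeR's test). Its sign depended on single libraries: the value was -0.10 when EGCG replicate 1 was dropped and 0.07 when control replicate 2 was.

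Pglyrp1 encodes a peptidoglycan recognition protein of the granules that binds bacterial cell walls. It was at 1017 and 1137 CPM in control and 1188 and 1214 CPM with EGCG. Both EGCG libraries were above both control libraries. It had the largest estimate of the 9 members, a log2 fold change of 0.16 (standard error 0.08, interval -0.02 to 0.33), with an unadjusted p of 0.0741 and an adjusted p of 0.469 by edgeR's test. With a library left out the log2 fold change ran from 0.08 (without control replicate 1) to 0.24 (without control replicate 2).

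Cd177 encodes a GPI-anchored surface glycoprotein of neutrophils that is stored in secondary granules and presents proteinase 3. It was at 1760 and 1723 CPM in control and 1745 and 1749 CPM with EGCG. The EGCG libraries lay between the control libraries. The log2 fold change was 0.0044 (standard error 0.08, interval -0.16 to 0.17, adjusted p of 0.989 by edgeR's test). The SD of its log2 CPM over the 4 libraries was 0.01, which stands at percentile 0.365 among the 3564 tested genes with a mean of 1000 counts or more, whose median SD was 0.08.

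Chil1 and Chil3 encode chitinase-like proteins, which bind chitin-type sugars but have lost the enzyme activity. Chil1, the mouse counterpart of YKL-40, is a secondary granule protein, whereas Chil3 (Ym1) is also made by monocytes and macrophages. Chil1 was at 807 and 998 CPM in control and 966 and 945 CPM with EGCG. The EGCG libraries lay between the control libraries, which differed by 0.31 on the log2 scale, the widest gap within a group among the members. Its log2 fold change was 0.08 (standard error 0.09, interval -0.12 to 0.29, adjusted p of 0.778 by edgeR's test), and it ran from -0.06 to 0.25 as control replicate 1 or 2 was dropped. Chil3 was the least counted member, at 287 and 321 CPM in control and 330 and 284 CPM with EGCG. These groups also overlapped, and the log2 fold change was 0.02 (standard error 0.09, interval -0.17 to 0.20, adjusted p of 0.968 by edgeR's test). With a library left out, Chil3 ran from -0.09 (without EGCG replicate 1) to 0.12 (without EGCG replicate 2).

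Padi4 encodes peptidylarginine deiminase 4, which converts arginine to citrulline in histones and takes part in the formation of neutrophil extracellular traps. It is a nuclear and cytosolic enzyme of neutrophils and not a granule protein. Padi4 was at 896 and 847 CPM in control and 940 and 927 CPM with EGCG. Both EGCG libraries were above both control libraries. The log2 fold change was 0.10 (standard error 0.08, interval -0.07 to 0.26, adjusted p of 0.655 by edgeR's test). It ran from 0.06 (without control replicate 2) to 0.14 (without control replicate 1) as a library was dropped.

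**Figure D2:**
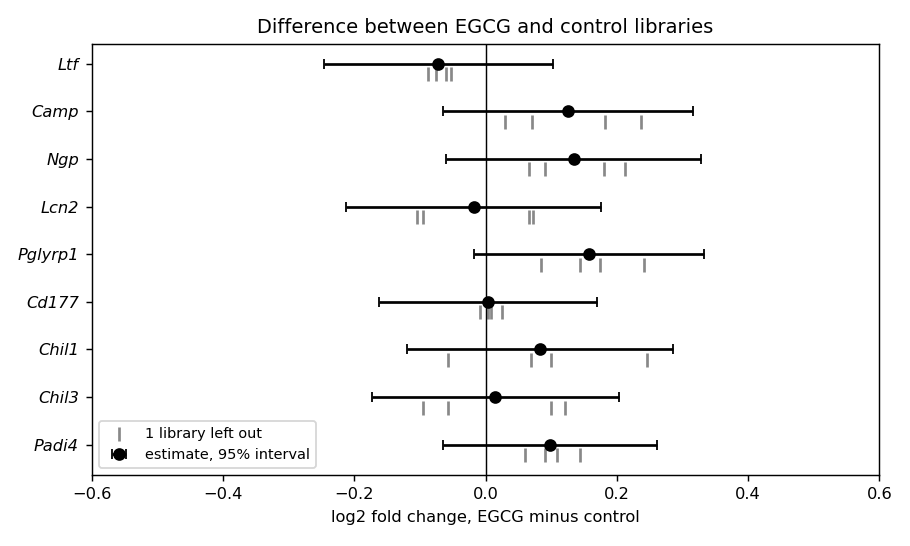
Log2 fold change (EGCG minus control) of each member with its 95% confidence interval (black), and the 4 values with 1 library left out (grey ticks below). All 9 intervals include 0, and the left-out values of Chil1, Chil3, Lcn2 and Cd177 fall on both sides of 0.

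The groups did not overlap in CPM for 4 of the 9 members, of which Ngp, Pglyrp1 and Padi4 were higher and Ltf lower with EGCG. Over all tested genes the groups did not overlap for 42.7%, which is near the share of the members. Control replicate 1 was the lowest of the 4 libraries for 4 members, Camp, Ngp, Chil1 and Pglyrp1, and for 29.3% of all tested genes. The same library was the lowest for the summed neutrophil markers, at 46069 CPM against 56513, 65239 and 55832 CPM in control replicate 2, EGCG replicate 1 and EGCG replicate 2. The part of this library in the estimates above 0 was not tested. Among the 8 neutrophil markers, 6 were above 0 with EGCG (median log2 fold change 0.11). By edgeR's test 0 of them passed and 2 had an unadjusted p under 0.05, beside 12.2% of all tested genes. Among the 5 basophil and eosinophil markers, 4 were below 0 (median -0.18), 0 passed and 2 had an unadjusted p under 0.05. When control replicate 2 was dropped, 4 members (Camp, Ngp, Chil1 and Pglyrp1) had an unadjusted p under 0.05, beside 14.4% of the genes tested in that fit, and the smallest adjusted p of any member was 0.188. That fit has control replicate 1 as its sole control and takes the spread from the EGCG pair, so these values rest on that library, which is the lowest for the same 4 genes.

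**Figure D3:**
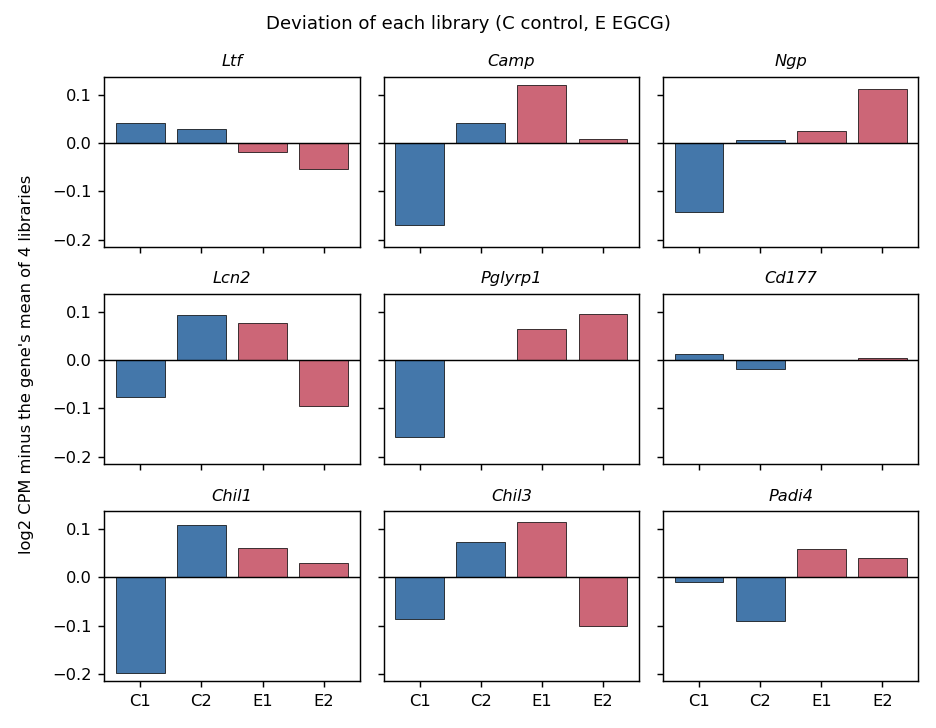
Deviation of each library's log2 CPM from the gene's mean over the 4 libraries, for control (blue) and EGCG (red) libraries. Control replicate 1 reaches -0.20 for Chil1, whereas no library of Cd177 departs by more than 0.02.

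Levels of different genes were compared per length, as FPKM (CPM per 1000 exonic bases, with all annotated exons of a gene joined). Ngp was the highest member, with 5548 to 6616 FPKM over the libraries, followed by Camp (1668 to 2039), Ltf (1051 to 1123) and Lcn2 (788 to 898). These did not overlap each other. Pglyrp1 (554 to 661 FPKM) and Cd177 (607 to 620) overlapped, and so did the lowest members, Chil3 (174 to 202) and Padi4 (175 to 194), with Chil1 (288 to 356) between these pairs. The place of Chil3 is uncertain, because the sources used here do not state how reads that map to several genes were counted. The order depends on the gene model, because some members carry long alternative exons. With the length of the principal transcript alone, an alternative added after the data were seen, Ngp was still first at 6134 FPKM on average, but Lcn2 (2416) came before Camp (1880), and Pglyrp1 (1641) before Ltf (1373). Camp and Pglyrp1 then overlapped (1668 to 2039 and 1466 to 1749 FPKM), while the 2 earlier overlaps were gone, with Pglyrp1 at 1466 to 1749 FPKM against 635 to 649 for Cd177, and Padi4 at 366 to 406 against 185 to 214 for Chil3.

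Fold changes fell with exonic length over all tested genes (Spearman correlation of -0.286 across 14666 genes, which share their libraries and are not independent). All members but Padi4 were shorter than the median of 3814.5 bases. With the length correction the log2 fold change was 0.04 for Camp, 0.08 for Ngp, 0.12 for Pglyrp1 and -0.09 for Ltf. For Padi4 it rose from 0.098 in the main fit to 0.110.

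Other proteins of the specific, gelatinase and secretory compartments were described with a list of 18 genes. Of these 17 were tested and 0 passed the threshold, with 11 estimates above 0, 6 below and a median of 0.05. An unadjusted p under 0.05 was found for 2, beside 12.2% of all tested genes. The gene not tested was Ptx3, which had no counts in any library. The most counted genes of this list were Lyz2, Mmp9, Itgb2 and Mmp8. Lyz2, lysozyme, was at 7951 and 8869 CPM in control and 10132 and 9003 CPM with EGCG (log2 fold change 0.19, standard error 0.10, adjusted p of 0.468 by edgeR's test). Mmp9, gelatinase B, was at 2929 and 2937 CPM in control and 3185 and 3287 CPM with EGCG (0.14, 0.08 and 0.515). Neither passed the test, although the groups did not overlap for either gene. The log2 fold change was 0.02 (standard error 0.08) for Itgb2, the integrin beta chain of the granule membrane, and -0.06 (0.09) for Mmp8, neutrophil collagenase.

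Family members and binding partners formed a list of 23 genes, of which 15 were tested. In this list 1 gene was lower with EGCG at the threshold and 0 were higher, with 8 estimates above 0 and 7 below. An unadjusted p under 0.05 was found for 4 (Lrp1, Pecam1, Padi3 and Tnfrsf1a). Over all tested genes 0.136% were lower at the threshold and 12.2% had an unadjusted p under 0.05. The gene called lower was Lrp1, an endocytic receptor of many ligands, lactoferrin among them. Lrp1 fell from 326 and 224 CPM in control to 153 and 175 CPM with EGCG. Its groups did not overlap, which held for 42.7% of all tested genes. The estimate was -0.75 on the log2 scale (standard error 0.13, adjusted p of 0.0427 by edgeR's test). The log2 fold change was -0.58 with the length correction (adjusted p of 0.0610 by edgeR's test) and -0.74 with DESeq2 (adjusted p of 0.275), both past 0.05. The call was also lost with upper-quartile scaling (log2 fold change -0.74, adjusted p of 0.0644) and no filter (-0.74 and 0.593). The same held with a mean count of 50 or more (-0.75 and 0.0762) and the robust fit (-0.75 and 0.313). Over the fits that dropped a library, Lrp1 ran from -0.44 (without control replicate 1) to -0.99 (without control replicate 2). Lrp1 is also made by macrophages. The 7 macrophage markers, of which none was at 0, had a median log2 fold change of -0.23, and 6 of them were below 0. Of the 7, 4 had an unadjusted p under 0.05, Slc40a1 in the other direction among them. Their summed level was 922 and 990 CPM in control and 956 and 998 CPM with EGCG, most of it from Slc40a1, the iron exporter, which was at 562 and 625 CPM in control and 668 and 696 CPM with EGCG. The other 6 summed to 360 and 365 CPM in control and 288 and 302 CPM with EGCG. Among 7 monocyte markers 6 were below 0 (median -0.14, 2 with an unadjusted p under 0.05). The 3 tested endothelial markers were all below 0, each with a raw p under 0.05 but none past the threshold after adjustment (Cdh5 -0.87, Kdr -0.75 and Pecam1 -0.26), at summed levels of 113 and 125 CPM in control and 93.9 and 98.0 CPM with EGCG. Most of that sum was Pecam1 (87.3 and 89.0 CPM with EGCG), and the fourth marker, Emcn, was too low to be tested. The part of these cell types in the result of Lrp1 was not tested. Of the paralogs, named after their values were seen, Padi1, Padi2, Padi3 and Padi6 reached at most 11.3 CPM in any library, far under Padi4.

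Transcription factors and receptors known to control granule genes formed a list of 11, all tested. None passed the threshold in either direction, and the median log2 fold change was 0.02. An unadjusted p under 0.05 was found for 2, beside 12.2% of all tested genes. The most counted were Csf3r, the receptor of G-CSF, Spi1 (PU.1), Cebpb and Cebpd. Csf3r was at 3561 and 3652 CPM in control and 3628 and 3643 CPM with EGCG (log2 fold change 0.01, standard error 0.08). Spi1 had a log2 fold change of 0.12 (0.08) and Cebpb of 0.22 (0.08). Cebpd was at 264 and 262 CPM in control and 338 and 308 CPM with EGCG, a log2 fold change of 0.30 (standard error 0.08) with an unadjusted p of 0.0016 and an adjusted p of 0.138 by edgeR's test. Cebpe, singled out here because it is the main factor of secondary granule genes, was at 145.1 and 144.9 CPM in control and 147.5 and 142.8 CPM with EGCG. Its groups overlapped, and the log2 fold change was 0.0014 (standard error 0.07, adjusted p of 0.997).

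**Figure D4:**
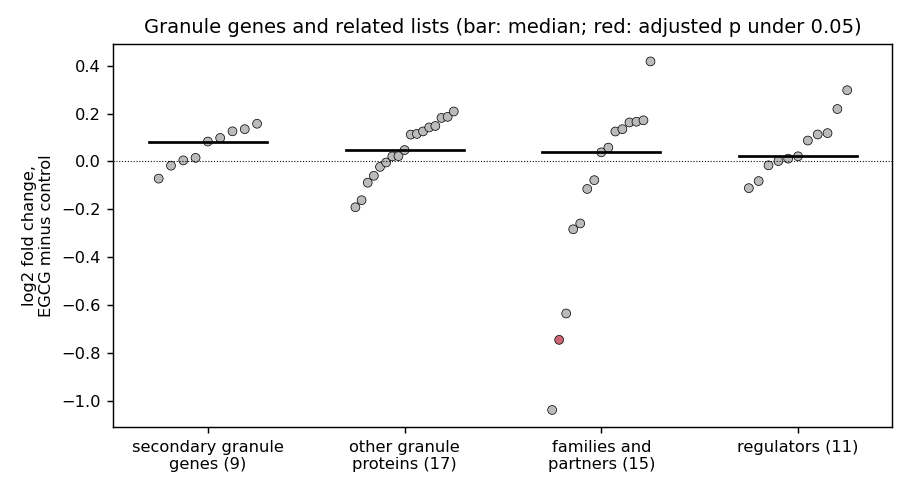
Log2 fold change (EGCG minus control) of the tested genes of 4 lists, with the median as a black bar and genes with an adjusted p under 0.05 in red. The 9 members lie between -0.07 and 0.16, and Lrp1 is the red point at -0.75.

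Precursor and cell cycle markers were set beside the members, since secondary granule genes are made before a neutrophil is mature. The 5 primary granule markers Mpo, Elane, Prtn3, Ctsg and Ms4a3 had a summed level of 679 and 672 CPM in control and 696 and 653 CPM with EGCG, with 0 past the threshold and 0 with an unadjusted p under 0.05 by edgeR's test. The summed level of 5 proliferation markers was 501 and 510 CPM in control and 415 and 398 CPM with EGCG, and Mki67, a protein of dividing cells, was lower at the threshold (log2 fold change -0.48, adjusted p of 0.0245 by edgeR's test). This call is given for the main fit only, and without a count filter 0 genes passed. The difference of the sums came from Mki67 and Top2a, the latter at 136 and 155 CPM in control and 126 CPM in both EGCG libraries (log2 fold change -0.21, adjusted p of 0.318). The estimate was -0.03 for Ccnb1, 0.03 for Cdk1 and 0.11 for Birc5, none of which passed. Their part in the members' values was not tested.

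The genes whose levels followed the members' median most closely over the 4 libraries were Cnbp, D1Ertd622e, Slc25a45, Tmem30a and Rsrc2, by the smallest root-mean-square distance of centered log2 CPM among 9265 other genes with at least 100 counts in every library. The distance was 0.0033 for Cnbp and 0.0090 for Rsrc2, whereas the members themselves were 0.05 (Camp) to 0.08 (Ltf) away from their own median. Each member's log2 CPM was centered on its mean over the 4 libraries. The median of these deviations was -0.09 in control replicate 1 and 0.03 in control replicate 2. With EGCG it was 0.06 in replicate 1 and 0.0081 in replicate 2. This is a shallow profile over 4 points, and the number of genes lying near it was not counted.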

How the data were processed

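RNA-seq counts of 4 libraries were used, 2 control and 2 EGCG, grouped by their labels. Per the submitters' notes and the paper's methods, the authors used STAR 2.6.0c (GRCm38) for alignment and featureCounts 1.6.2 with Ensembl genes for counting. They deposited whole-number counts per gene, not normalized and, per the file's name, without regard to strand. The table held 0 columns of other samples and 0 rows without a gene name.

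From these counts, genes of low count were dropped (filterByExpr, minimum 10), TMM factors were computed, and the groups were compared by the legacy quasi-likelihood test of edgeR 4.0.16 (R 4.3.3), with Benjamini-Hochberg adjustment over 14682 genes. The standard error is the size of the log2 fold change over the square root of F, and 95% intervals use the test's degrees of freedom. The fit was tested on simulated data. CPM carry the TMM factors. GENCODE M21 (GRCm38) gave positions and lengths for 53360 of the identifiers, and upstream sequences came from RefSeq (GRCm38.p6). Alternatives were other scalings and filters, DESeq2 1.42.0, robust and newer fits, a length correction (loess with a span of 0.4), a replicate block and leaving out each library.

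The members and lists were chosen with earlier results of these data known, so the members were not tested as a set. All members were named. Of the other lists, genes past the threshold were named, or otherwise the 2 to 4 most counted; other names (Ly6g, untested genes, paralogs, Pecam1, Tnfrsf1a, Cebpe and single markers beside Lrp1 and Mki67) were added after their values were seen.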

Additional observations from a re-analysis of the deposited data

How the results depend on the processing

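No alternative brought any of the 9 members past the threshold, in either direction, and the adjusted p of the members ran from 0.188 to 0.9999 over 14 alternatives. Of 126 member values, 11 changed sign. Cd177 became -0.031 with library size only, -0.00037 with a mean count of 50 or more, -0.021 with the length correction and -0.0088 to 0.025 over the fits that dropped a library, lowest without control replicate 2. Chil3 became -0.019 with library size only and -0.029 with the length correction, and was -0.058 without control replicate 1, -0.095 without EGCG replicate 1 and up to 0.12 otherwise. Chil1 ran from -0.057 without control replicate 1 to 0.25. Lcn2 ran from -0.10 to 0.072 (without control replicate 2) and was 0.067 without EGCG replicate 2. The cause was not tested. The members' median stayed between 0.02 and 0.10. The number of all genes past the threshold, 20 lower and 2 higher, was less stable: 135 and 16 with library size only, 50 and 14 with DESeq2, 49 and 14 with the robust fit, 9 and 1 with a mean count of 50 or more, 0 and 0 without a filter, 9 lower with upper-quartile scaling, 6 lower with the length correction, and 6 higher with the newer quasi-likelihood form or the replicate block. Dropping a library gave 72 to 235 lower and 5 to 119 higher. The labels do not state whether libraries with the same replicate number were paired. Their deviations from the group means had a correlation of 0.0336 over 14682 genes. This value rests on 1 contrast per group and cannot decide whether they were paired. The replicate block left 0 members past the threshold. The least counted member, Chil3, had a mean of 5507 counts a library, and changes smaller than the members' intervals are not separated from 0 here.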

Other observations

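Ratios of counts within a library need no scaling and were taken for all 36 pairs of members. The groups did not overlap for 14 pairs, and the same held for 51.8% of 6349266 pairs among the 3564 tested genes with a mean of 1000 counts or more. Of the 14, 6 were among the 8 pairs with Ltf. The 36 pairs share 9 genes and are not independent, and the difference between the shares was not tested. The counts of Ngp were 1.75 and 1.96 times those of Ltf in the control libraries and 2.05 and 2.23 times with EGCG, and the counts of Pglyrp1 relative to Ltf were lower in control as well, since Ltf was 3.81 and 3.38 times Pglyrp1 in control and 3.13 and 2.99 times with EGCG. In both pairs control replicate 2 lay nearer to EGCG replicate 1 than to control replicate 1, and no test was run.

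Camp, Lcn2, Chil1 and Chil3 shared another pattern, noticed after their values were seen, in which control replicate 1 and EGCG replicate 2 both lay below the other two libraries. It held for 4 of the 9 members and for 13.6% of all tested genes. The summed neutrophil markers showed it too, at 46069 CPM in control replicate 1 and 55832 CPM in EGCG replicate 2. They were at 56513 CPM in control replicate 2 and 65239 CPM in EGCG replicate 1. Most of this sum came from S100a8 and S100a9, and of these S100a8 lacked the pattern. It was at 18163 CPM in control replicate 2 and 19476 CPM in EGCG replicate 2. Taken singly, S100a9, Ly6g, Retnlg and Il1r2 had the pattern, and Cxcr2, Csf3r and G0s2 also lacked it. The pattern crosses the groups and its origin was not tested.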
